A study of Drosophila melanogaster with 8 samples.

Results

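Serpins are a family of proteins most of which block serine proteases, and 10 serpin genes of Drosophila melanogaster were considered here: Spn43Aa, Spn43Ab, Spn43Ad, nec, Spn27A, Spn42Da, Spn42Dd, Spn55B, Spn77Ba and Spn88Ea. A gene was taken where a spot was paired with it and with no other gene, which gave 9 of the 10 genes, among 10609 genes in all. Spn43Ad was not analysed here. Each of the 9 genes had 1 spot. Of the 9 genes, 6 lie on chromosome arm 2R, while Spn27A lies on 2L, Spn77Ba on 3L and Spn88Ea on 3R. The genes were selected on, and Spn43Aa set apart from the rest by, the stage ratios of all 8 arrays. The ratios of the 9 genes are therefore given as a description. Counts from a fit to all genes are printed beside them, and nothing is inferred from these.

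An inhibitory serpin offers a loop to its target protease and, once cut, traps the enzyme in a covalent complex. In insects such inhibitors circulate in the haemolymph, the insect blood, and restrain protease cascades. One cascade cleaves Spätzle, the ligand of the Toll receptor, and so switches on antifungal peptides. Another activates the phenoloxidases that make melanin at wounds and in the cuticle. Other serpins act inside the secretory pathway or are passed on in seminal fluid.

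The 8 spotted arrays each carried RNA of larvae in 1 channel and RNA of adults in the other, each a mixture of stages of wild-type Canton S animals. Larvae were in channel 1 on replicates 1, 3, 6 and 8, and adults were in channel 1 on replicates 2, 4, 5 and 7. The labels give the assessment of technical error as the aim and describe separate portions taken from a single TRIzol homogenate, so the arrays are technical replicates and their spread says nothing about animals or cultures. The descriptions speak of polyA RNA, whereas the molecule field gives total RNA. No tissue is named for either stage, so more cells of a type and more RNA per cell cannot be told apart. Each value is a log2 ratio of the 2 channels, centred on each array's median over the spots with 1 gene and reversed in sign where adults were in channel 1. This is called the turned ratio below. The sources used here do not give the numerator channel. A ratio is therefore reported as lying on the positive or the negative side, without naming the stage that was higher.

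The 4 measured genes of the larval marker list lay mostly below 0, and adult markers were divided in a way that depended on centring. Of 4 measured larval markers, 3 passed the test below 0 and none above it, with Lcp9, a larval cuticle gene, at -2.75 ± 0.68 and the glue gene Sgs1 at -2.38 ± 0.76 (SD, n = 8). Sgs4, also on that list, was at 0.11 ± 0.54 and did not pass. Fbp1 was kept on the list of fat body markers and not counted among larval ones, and stood at 4.30 ± 0.29. Of 10 measured adult markers, 5 passed above 0 and 1 below it, with the sperm tail gene Mst98Cb at 3.54 ± 0.37 and the flight muscle gene fln at 2.35 ± 0.68. Of all genes 29.2% passed above 0 and 27.9% below it. As deposited the adult markers gave 4 calls above 0 and 5 below it, with a median of -0.05. As deposited 1034 of all 10609 genes passed above 0 and 6029 below it. Centring on all spots, array weights and leaving out replicate 1 each gave 5 above 0 and 3 below it, and leaving out replicate 6 gave 5 and 2. In that order 2049, 3649, 3066 and 2847 of all genes passed above 0 in these settings, and 3690, 3666, 2922 and 2505 below it. Markers of the male accessory gland, an adult tissue, lay mostly below 0, with 4 of 7 passing there and 1 above it. Their list is not separate from that of adult markers, since both were drawn up with Acp26Aa, Acp36DE and Acp70A. Array spread was the median absolute deviation of the centred ratios over spots with 1 gene, scaled to match the SD of normally distributed values. It ran from 0.302 on replicate 1 to 0.937 on replicate 7. Replicate 7 held the highest or the lowest of the 8 ratios for 56.8% of genes, and for 6 of the 9 serpins. Values without it are given for some genes and counts only.

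Spn43Aa had by far the highest ratio of the family. Its turned ratio was 4.52, 4.39, 3.81 and 3.85 on the arrays with larvae in channel 1 (replicates 1, 3, 6 and 8), and 3.99, 4.52, 4.86 and 4.07 on those with adults in channel 1 (replicates 2, 4, 5 and 7). All 8 values lay well clear of 0, and the orientations overlapped. The mean of 4.25 ± 0.38 (SD, n = 8) corresponds to a 19.0-fold difference between the stages. This size depends on centring, since the fitted ratio was 3.81 as deposited and 4.11 centred on all spots. Spn43Aa ranked first of the 9 serpins on each of the 8 arrays. Between 3 and 13 of the 10609 genes had a higher ratio than Spn43Aa on a given array, and 6 had a higher mean. Set against the array spread defined above, the ratio of Spn43Aa was smallest on the wide replicate 7, at 4.34 times that spread. It stood at 10.6 times on replicate 5.

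**Figure D1:**
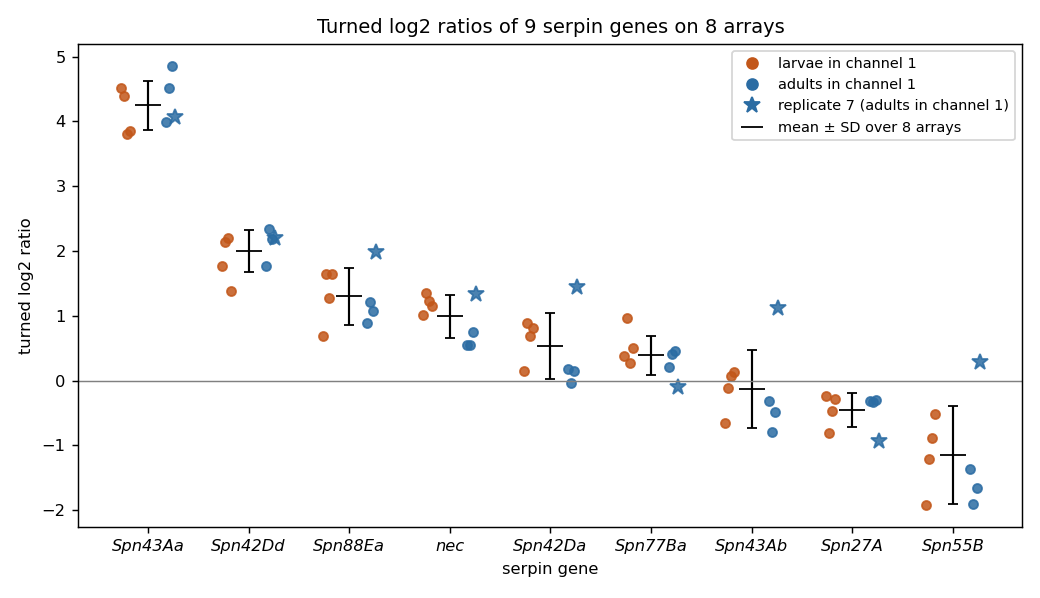
Turned log2 ratio (vertical axis) of each of the 9 serpin genes, ordered by mean. Orange points are the 4 arrays with larvae in channel 1, blue points the 4 with adults in channel 1, the star is replicate 7, and bars are the mean ± SD over 8 arrays. Spn43Aa lies between 3.81 and 4.86, above every value of the other 8 genes, and the star stands above all other points of Spn88Ea, Spn42Da, Spn43Ab and Spn55B.

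Spn42Dd, Spn88Ea and nec, which are known to restrain Toll signalling, stood on the positive side on every array. Spn42Dd, which represses the Toll response to fungi, had a lowest ratio of 1.38, a median of 2.16 and a highest of 2.33 (mean 2.00 ± 0.32, n = 8). Spn88Ea, another negative regulator of Toll signalling, ran from 0.68 through a median of 1.24 to 1.99 (mean 1.30 ± 0.43). nec encodes Necrotic, the blood serpin whose loss leaves Toll signalling on and causes melanised spots. Its ratio ran from 0.55 through a median of 1.08 to 1.36 (mean 0.99 ± 0.34). As deposited the mean was 0.55 for nec and 0.86 for Spn88Ea. Without replicate 7, which held its highest value, the fitted ratio of Spn88Ea was 1.18. The values of Spn43Aa overlapped with none of these, its lowest ratio being 3.81.

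Spn27A and Spn77Ba, which hold back melanisation, lay on different sides. Spn27A blocks phenoloxidase activation in the haemolymph and, in the embryo, the protease Easter of the Toll cascade, and it was negative on all 8 arrays. Its lowest ratio was -0.94, on replicate 7, its median -0.32 and its highest -0.23 (mean -0.46 ± 0.27). As deposited its mean was -0.89, and without replicate 7 its fitted ratio was -0.38. Spn77Ba, which restrains melanisation in the tracheae, was positive on 7 of 8 arrays, from -0.10 on replicate 7 through a median of 0.40 to 0.97 (mean 0.39 ± 0.30). Without array centring the mean of Spn77Ba was -0.049, so its side depends on the centring.

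Spn42Da, Spn43Ab and Spn55B moved most between arrays. Spn42Da, whose splice forms include an inhibitor of furin kept in the secretory pathway, ran from -0.03 through a median of 0.44 to 1.45 (mean 0.53 ± 0.51) and was positive on 7 of 8 arrays. Spn43Ab, encoded close to Spn43Aa, ran from -0.79 through a median of -0.22 to 1.12 (mean -0.13 ± 0.60) and was negative on 5 of 8 arrays. Spn55B ran from -1.92 through a median of -1.29 to 0.29 (mean -1.15 ± 0.76) and was negative on 7 of 8 arrays. In all 3 genes the highest value came from replicate 7. Without that array the fitted ratios were 0.37 for Spn42Da, -0.33 for Spn43Ab and -1.39 for Spn55B. As deposited they were 0.099 for Spn42Da, -0.57 for Spn43Ab and -1.58 for Spn55B over all 8 arrays.

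In a limma fit of all 10609 genes with a stage and a channel term, 57.1% of genes had an adjusted p under 0.05, made up of 29.2% above 0 and 27.9% below 0. Of the 9 serpins, 6 passed above 0 and 2 below it (Spn27A and Spn55B), and Spn43Ab did not pass. Because the genes were chosen with this contrast known, the count is set beside the share of all genes and nothing is read from it. Without replicate 7 the count on the negative side was 3, with Spn43Ab at -0.33 added, beside 3057 of all 10609 genes. With values as deposited, all genes had a median of -0.45, against -0.01 after centring. As deposited 4 serpins passed above 0 and 3 below it, and Spn42Da and Spn77Ba did not pass. Of all 10609 genes, 1034 passed above 0 and 6029 below it with these values.

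The gap between Spn43Aa and the other serpins exceeded the spread between arrays for each of the 8 genes. The nearest was Spn42Dd, which Spn43Aa exceeded by 2.25 ± 0.38 (SD over 8 arrays), or 4.77-fold, with a lowest gap of 1.62. Against Spn88Ea the gap was 2.95 ± 0.67, against nec 3.26 ± 0.59 and against Spn42Da 3.71 ± 0.77. Against Spn77Ba it was 3.86 ± 0.40 and against Spn27A 4.71 ± 0.42. Against Spn43Ab it was 4.38 ± 0.87 and against Spn55B, the serpin at the far end, 5.39 ± 1.04. Each gap had the same sign on 8 of 8 arrays. The ratio of Spn43Aa minus the median of the other 8 mean ratios was 3.79, and it ran from 3.67 to 3.89 with any 1 array left out. The choice of centring cancels in these gaps.

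The order of the remaining serpins was less firm. Spn42Dd exceeded Spn88Ea by 0.70 ± 0.50 on 7 of 8 arrays, Spn88Ea exceeded nec by 0.31 ± 0.33 on 7 of 8, and nec exceeded Spn42Da by 0.45 ± 0.28 on 7 of 8. Spn42Da and Spn77Ba differed by 0.15 ± 0.64, with Spn42Da higher on 3 of 8 arrays. Spn77Ba exceeded Spn43Ab by 0.52 ± 0.79 on 7 of 8 arrays. Spn43Ab exceeded Spn27A by 0.33 ± 0.82 on 4 of 8 arrays, and Spn27A exceeded Spn55B by 0.69 ± 0.96 on 7 of 8. The mean gap was smaller than its SD over arrays for Spn88Ea and nec, and for each pair from Spn42Da downwards.

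A further 16 serpin genes were measured, each by 1 spot, and 0 of the 25 serpins exceeded Spn43Aa. Of these 16 genes, 4 passed the test above 0, 9 passed below 0 and 3 did not pass, with a median of -0.30, against a median of 0.53 for the 9 listed serpins and -0.01 for all genes. Shares of all genes were 29.2% above 0 and 27.9% below it. With values as deposited the 16 genes gave 3 calls above 0 and 12 below it, beside 1034 and 6029 of all 10609 genes. Spn100A had the highest ratio among them, 2.13 ± 0.41, which Spn43Aa exceeded by 2.12 ± 0.64. Spn28Dc, a regulator of phenoloxidase activity, was at 1.32 ± 0.53, Spn47C at 1.15 ± 0.40 and Spn88Eb at 0.49 ± 0.46. Spn88Eb did not pass as deposited, at 0.049 (limma adjusted p = 0.751).

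On the negative side the ratios of the other serpins were close together. Spn28B was at -0.68 ± 0.43, Spn85F at -0.64 ± 0.24, Spn28F at -0.59 ± 0.45, Spn28Da at -0.55 ± 0.42 and Spn38F at -0.52 ± 0.38. Acp76A, a serpin of the seminal fluid, was at -0.55 ± 0.43. Of 7 measured markers of the male accessory gland, a list that also holds Acp76A, 4 passed below 0 and 1 above it. Shares of all genes were 27.9% below 0 and 29.2% above it. As deposited 6 of the 7 passed below 0 and none above it, beside 6029 and 1034 of all 10609 genes. With centring on all spots, with array weights and without replicate 1, 6 passed below 0 and 1 above it. Of all genes 3690, 3666 and 2922 passed below 0 in these settings, and 2049, 3649 and 3066 above it. The part of the accessory gland in the serpin ratios was not tested. Spn53F at -0.35 ± 0.36, Spn42Db at -0.34 ± 0.26 and Spn77Bc at -0.26 ± 0.33 also passed. Spn53F did not pass without replicate 2, 3, 5, 6 or 7 (limma adjusted p of 0.0511 to 0.0717), nor Spn77Bc without replicate 2, 3, 4, 5, 6 or 7 (0.0531 to 0.0915). The genes that did not pass were Spn42Dc at -0.24 ± 0.33, Spn31A at -0.16 ± 0.17 and Spn42De at 0.06 ± 0.23. Spn42Dc passed without replicate 7 (-0.35, limma adjusted p = 0.00355). It also passed centred on all spots, as deposited, scaled to one spread, after quantile normalization and with array weights (limma adjusted p of 0.000514 to 0.0381). Spn31A passed below 0 as deposited (limma adjusted p = 0.00455) and centred on all spots (0.0482). Spn42De passed below 0 as deposited (limma adjusted p = 0.0213). The sources used here do not say whether spots of neighbouring serpin copies tell each other apart.

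**Figure D2:**
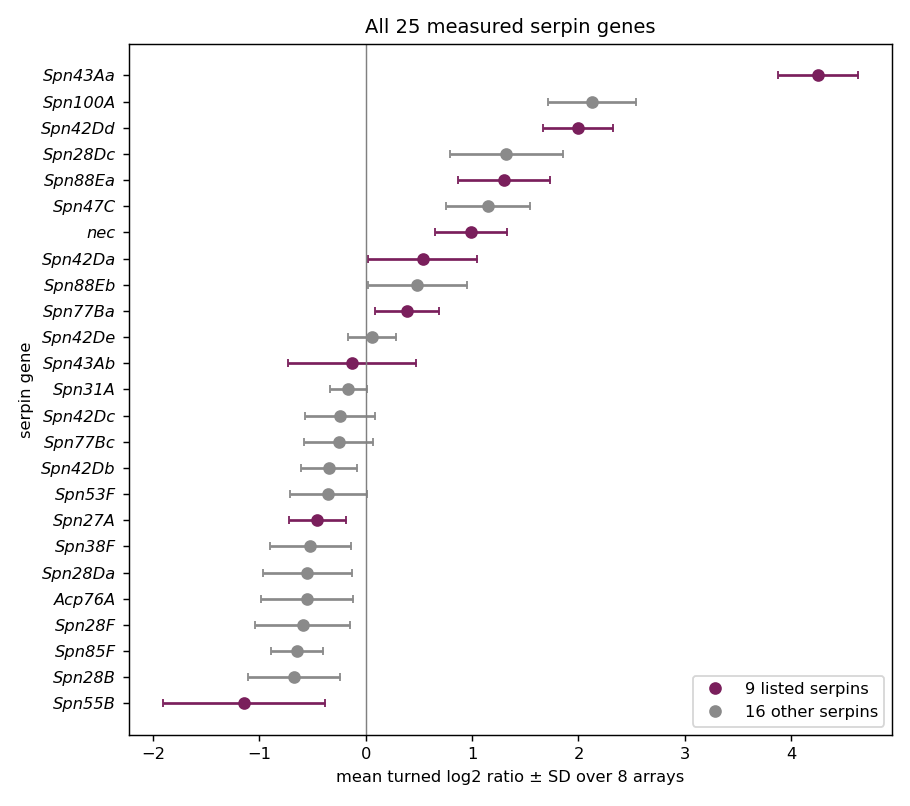
Mean turned log2 ratio ± SD over 8 arrays (horizontal axis) of the 25 measured serpin genes, sorted by mean. Purple points are the 9 listed serpins and grey points the 16 others. Spn43Aa at 4.25 stands alone, followed by Spn100A at 2.13 and Spn42Dd at 2.00, and Spn55B at -1.15 is the lowest.

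Spn43Aa opens a serpin cluster on arm 2R, and its neighbours had other ratios. In the gene order of the RefSeq table, the nearest measured genes on the low-coordinate side were the cytochrome P450 genes Cyp9b2 and Cyp9b1, at -0.89 ± 0.88 and -0.70 ± 0.60, and then esn at 0.45 ± 0.47. On the other side came Spn43Ab at -0.13, nec at 0.99 and CG11060 at 0.32 ± 0.32. CG11060 stood at -0.11 as deposited. None of the 6 neighbours exceeded nec, which lay 3.26 below Spn43Aa.

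The genes most like Spn43Aa were of other families. Likeness was taken as the root mean square difference of turned ratios over the 8 arrays, computed for all genes. It was smallest for CG4151 at 0.326, followed by Fbp1, which encodes a receptor that takes up storage proteins into the fat body, at 0.440 and the cuticle protein gene Cpr64Ac at 0.518. The cuticle protein gene Cpr49Ah came next at 0.599, with CG1850 also at 0.599 and the troponin C gene TpnC4 at 0.610. Mean ratios of these 6 genes ran from 3.87 ± 0.50 for TpnC4 to 4.77 ± 0.33 for CG1850. CG4151 was at 4.29 ± 0.27, Fbp1 at 4.30 ± 0.29 and Cpr64Ac at 4.22 ± 0.29, beside Spn43Aa at 4.25. The genes were picked for closeness in these same ratios, so nothing is read from how close their means are.

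**Figure D3:**
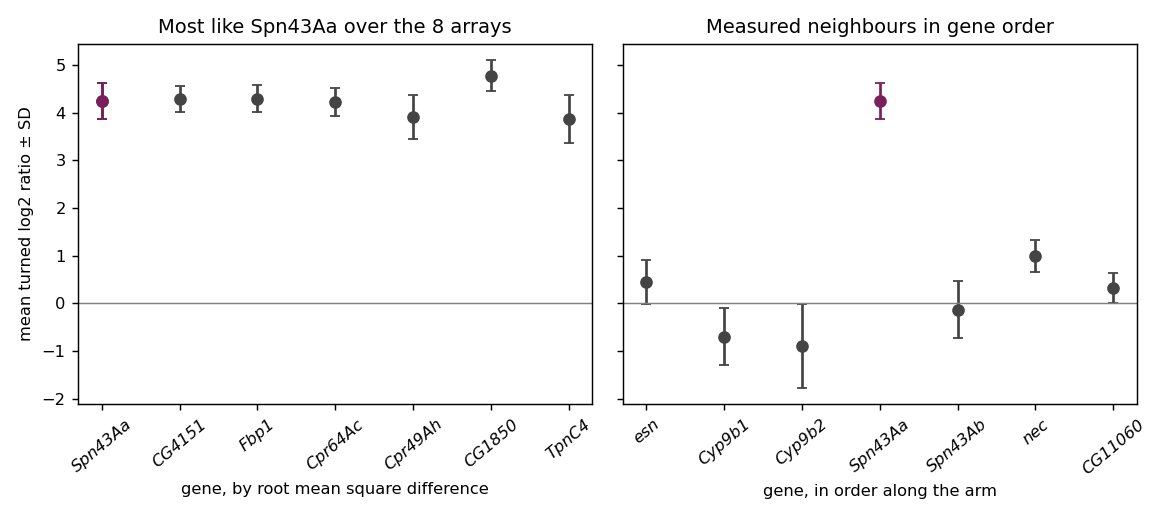
Mean turned log2 ratio ± SD over 8 arrays (vertical axis, shared). The left panel shows Spn43Aa (purple) and the 6 genes with the smallest root mean square difference from it, all between 3.87 and 4.77. The right panel shows the nearest 3 measured genes on each side of Spn43Aa in gene order, which lie between -0.89 and 0.99.

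Genes that work with serpins in the same cascades were set beside them from lists drawn up by role. Of 8 measured serine proteases of the Toll and melanisation cascades, 4 passed below 0, 1 passed above 0 and 3 did not pass, with a median of -0.21. Among the proteases of embryonic dorsal-ventral patterning, snk was at -0.90 ± 0.17, ndl at -0.66 ± 0.47 and gd at -0.34 ± 0.39. Hayan, a protease upstream of phenoloxidase, was at 0.27 ± 0.24, and at -0.17 as deposited. Among all genes 27.9% passed below 0 and 29.2% above it. As deposited 7 of the 8 proteases passed below 0 and none above it, beside 6029 below and 1034 above of all 10609 genes. With 1 array left out, between 2 and 4 passed below 0, the 2 occurring without replicate 2, 6 or 8. Hayan did not pass without replicate 3, 4, 6, 7 or 8.

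Downstream of the proteases, 8 of 11 Toll signalling genes passed above 0, 1 passed below it and 2 did not pass, with a median of 0.31. Shares of all genes were 29.2% above 0 and 27.9% below it. The split depended on centring: as deposited 2 passed above 0 and 3 below it (median -0.13), and centring on all spots left 3 above 0 and 1 below it. Of all 10609 genes, 1034 passed above 0 and 6029 below it as deposited, and 2049 and 3690 centred on all spots. Drs, the antifungal peptide drosomycin, was at 2.60 ± 0.51 and the receptor gene Tl at 0.88 ± 0.28. cact, the inhibitor of the Toll transcription factors, was at 0.70 ± 0.33 and the adaptor gene wek at -0.51 ± 0.33. Of 2 measured recognition genes, PGRP-SC2, a peptidoglycan amidase, was at -0.84 ± 0.74 and passed, and GNBP3, a glucan sensor, was at 0.02 ± 0.34 and did not.

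Melanisation genes went both ways, with 3 of 8 positive, 3 negative and 2 not past the threshold, and a median of 0.04 (-0.39 as deposited, -0.09 centred on all spots). Shares of all genes were 29.2% positive and 27.9% negative. PPO1, a phenoloxidase of crystal cells, was at -2.20 ± 0.82. ple, the tyrosine hydroxylase gene, was at 1.88 ± 0.33, yellow-f at 1.26 ± 0.40 and the pigment gene y at 1.11 ± 0.25.

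Counts for markers of tissues that make serpins depended on centring. Of 10 blood cell markers, a list that shares PPO1 and PPO2 with the melanisation list, 3 passed above 0 and 5 below it, with vkg at -0.71 ± 0.35, Col4a1 at -0.66 ± 0.58 and Pxn at 0.64 ± 0.46. As deposited none passed above 0 and 7 below it, and centring on all spots gave 1 above 0 and 5 below it. Shares of all genes were 29.2% above 0 and 27.9% below it. Of all 10609 genes, 1034 passed above 0 and 6029 below it as deposited, and 2049 and 3690 centred on all spots. Without replicate 8 the counts were 2 above 0 and 5 below it. Of 6 fat body markers, a list that shares Yp1 with the adult markers, 3 passed above 0 and 1 below it. They ran from Fbp1 at 4.30 through Yp1 at 1.17 ± 0.40 and Lsd-2 at 0.74 ± 0.58 to FASN1 at -2.46 ± 0.59. As deposited the fat body markers gave 2 calls above 0 and 3 below it, and they gave 3 and 2 with array weights and without replicate 7. Their part in the serpin ratios was not tested.

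The technical error of the serpins was wide but within the range of all genes. The residual SD, the spread between arrays left after the stage and channel terms (6 residual degrees of freedom), had a median of 0.387 over the 9 serpins, against 0.392 over the 16 other serpins and 0.301 over all genes. It was lowest for Spn77Ba at 0.280, nec at 0.284 and Spn27A at 0.288, all below the median gene. Spn42Dd was at 0.320, Spn43Aa at 0.387 and Spn88Ea at 0.468. Spn42Da at 0.538, Spn43Ab at 0.650 and Spn55B at 0.819 exceeded 90.6%, 94.8% and 98.4% of genes. Spn43Aa, with the highest ratio, exceeded 72.1% of genes.

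Spots of these genes were not all equally bright. Each ratio can be written as 2 whole numbers in lowest terms, and the median over arrays of their mean log2 served as a lower bound of brightness. It was at percentile 15.4 of genes for Spn55B and 30.9 for Spn43Ab, the 2 serpins with the widest spread. Spn42Dd was next at percentile 35.0, and its residual SD of 0.320 exceeded 55.8% of genes. Brightness was at percentile 48.3 for Spn43Aa, 56.5 for nec, 57.4 for Spn77Ba, 76.7 for Spn42Da, 77.3 for Spn88Ea and 88.0 for Spn27A. The part of brightness in the spread was not tested.

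**Figure D4:**
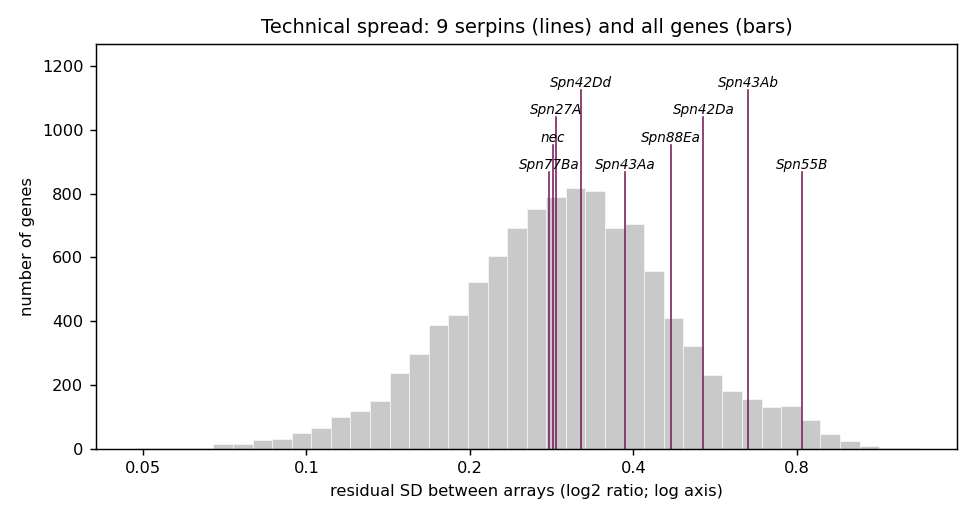
Number of genes (vertical axis) by residual SD of the log2 ratio between arrays (horizontal log axis). Grey bars are all 10609 genes and purple lines the 9 serpins. Lines run from Spn77Ba at 0.280 to Spn55B at 0.819, with Spn43Aa at 0.387.

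The arrays of both orientations also allowed a test that the choice of genes had not used, whether a serpin's turned ratio depended on the channel that held the larvae. The difference was taken as arrays with larvae in channel 1 minus arrays with adults in channel 1. In the limma fit 0 of 10609 genes (percent called 0) passed an adjusted p of 0.05 for this term, and 478 genes, or 4.51%, had an unadjusted p under 0.05. Among the 9 serpins 0 had an unadjusted p under 0.05, and adjusted p values ran from 0.914 to 0.997.

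nec had the widest difference between orientations. It stood at 1.01, 1.36, 1.23 and 1.15 with larvae in channel 1, and at 0.55, 0.55, 0.75 and 1.34 with adults in channel 1. The groups overlapped through replicate 7, at 1.34. Their means were 1.18 ± 0.15 and 0.80 ± 0.37 (SD, n = 4 each), a difference of 0.39 with a 95% interval of -0.06 to 0.84 (limma adjusted p = 0.914). When limma weighted arrays by their quality, replicate 7 had the lowest weight, at 0.15. Replicate 5 had by far the highest, at 7.92, and replicate 4 came next at 1.60. With these weights the difference for nec was 0.48 and passed (limma adjusted p = 0.0364), along with 1175 genes in all, or 11.1%. The weighted value with adults in channel 1 thus leans mainly on replicate 5.

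For Spn43Aa the means were 4.14 ± 0.37 with larvae in channel 1 and 4.36 ± 0.41 with adults in channel 1 (n = 4 each). The difference of -0.22 had a 95% interval of -0.76 to 0.32 (limma adjusted p = 0.921). With array weights the channel term of Spn43Aa did not pass either (limma adjusted p = 0.0639). The widest interval, from -0.95 to 1.00, belonged to Spn55B, and that of Spn27A ran from -0.43 to 0.47. Spn77Bc, which is outside the 9 genes, was the only 1 of 25 serpins with an unadjusted p under 0.05, with a difference of -0.46 (adjusted p = 0.914).

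**Figure D5:**
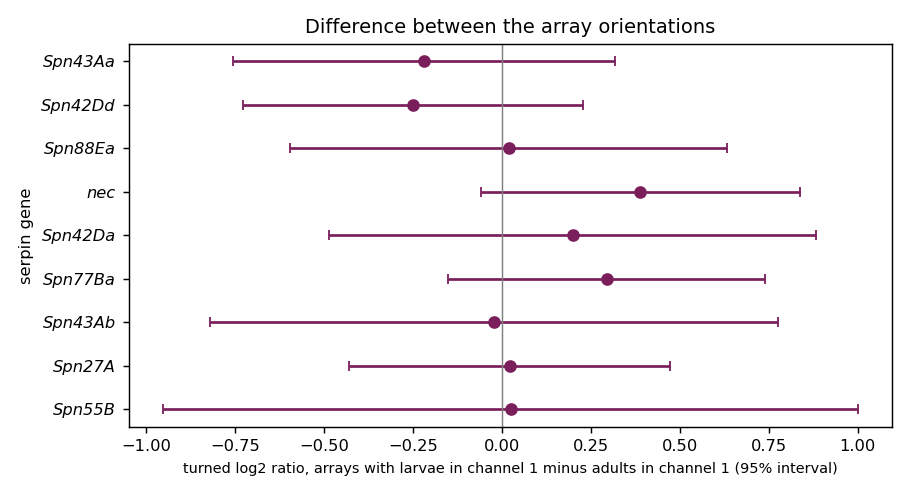
Turned log2 ratio on arrays with larvae in channel 1 minus that on arrays with adults in channel 1 (horizontal axis), with 95% intervals from limma, for each of the 9 serpins in order of their mean ratio. Every interval includes 0, and differences run from -0.25 for Spn42Dd to 0.39 for nec.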

How the data were processed

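Spotted 2-channel arrays compared larval and adult RNA on 8 arrays, 4 in each orientation. The labels' protocols name an Axon 4000 scanner run with GenePix, and Spot version 2.0 for quantifying spots. The deposited values are log2 ratios of the channels, read as such from the values: 100% match 2 whole numbers divided by each other, up to 58096 (relative tolerance 1e-13). The sources used here do not give dyes, background handling, filters or the numerator.

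Of 20000 spots, 12246 had 1 gene in the platform table, 86 had several and 7668 were unnamed here. For 11873 of the spots with 1 gene the symbol was updated through the RefSeq table of Release 6, used for names and gene order alone. Spots of a gene were averaged. The fit used lmFit and eBayes of limma 3.58.1 (R 4.3.3) with stage and channel columns, with Benjamini-Hochberg adjustment over 10609 genes at 0.05, and tested on simulated data. SDs are over arrays. Python 3.11.15, pandas 2.3.3 and matplotlib 3.10.9 made summaries and figures. The number of arrays limits the precision.

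The members and lists were chosen with earlier results of these data known, and the lists were edited after the files were read: Spn28B was added to the other serpins, aliases of genes already listed were dropped and yellow was renamed y. Named genes were all serpins, up to 4 genes per list with the largest absolute ratio, the 6 genes most like Spn43Aa and its 3 measured neighbours on each side. Alternatives covered centring, scaling, quantile normalization, the spot used, the channel column, array weights, dim spots and each array left out. The planned comparison of spots within a gene gave no value, since 0 of 25 serpins had more than 1 spot.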

Additional observations from a re-analysis of the deposited data

Results flagged for a closer look

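Among the 25 serpins, 2 had 1 array far from the other 7 by Dixon's criterion, and both deviated on replicate 7. Spn100A stood at 3.02 there, against a median of 2.02 over the 8 arrays. Spn28F stood at -1.57 there, against a median of -0.57. Chance marks about 1 in 20 sets of values. Replicate 7 had the widest ratios of the 8 arrays, with an array spread (scaled median absolute deviation) of 0.937. None of the 9 listed serpins met the criterion.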

How the results depend on the processing

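The ratio of Spn43Aa minus the median of the other listed serpins was 3.79, from 3.71 to 4.12 over 10 other settings and from 3.67 to 3.89 with 1 array left out. The fit called 8 of the 9 serpins, from 7 to 9 over the alternatives, and 1 rather than 2 passed on the negative side with the dimmest 25% of spots left out, where Spn55B was not tested. The channel term called 0 serpins, and 1 with array weights. The median residual SD of 0.387 was 0.503 centred on all spots, 0.495 as deposited, 0.296 scaled to one spread, 0.337 after quantile normalization, 0.313 with array weights, 0.353 without dim spots and 0.317 to 0.415 with 1 array left out. Calls on all genes, 3099 positive and 2958 negative, were 2049 and 3690 centred on all spots (median -0.15) and 1034 and 6029 as deposited. Ratios that changed sign were, as deposited, CG11060 (-0.11), Hayan (-0.17), Spn77Ba (-0.049), GNBP3 (-0.42), Sgs4 (-0.33) and Spn42De (-0.38). Centred on all spots, GNBP3 (-0.12), Sgs4 (-0.031) and Spn42De (-0.079) did so, and Spn42De with array weights (-0.012). With 1 array left out GNBP3 ran from -0.083 to 0.079, Sgs4 from -0.048 to 0.20 and Spn42De from -0.0025 to 0.10. No paired analysis was possible because the orientations share no replicate number. Causes were not tested.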
